A study of Caenorhabditis elegans with 10 samples.

Results

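The comparison described here sets the Aβ strain GMC101 at 24 h of induction against the same strain at 8 h, gene by gene, in RNA from whole Caenorhabditis elegans. Its members are the 18538 genes listed in both the 24 h and the 8 h table, of 22554 genes listed in either, joined by gene identifier. Of the 10 labelled samples, 5 are GMC101, 3 at 24 h and 2 at 8 h, and 5 are the control strain CL2122, likewise 3 and 2. Each table holds a single column per strain, with no replicate in its name, so that every gene had 1 value per strain and time and no difference between the times had a replicate check. The study's own supplementary tables name the 8 h data as a second batch, and time and batch cannot be told apart.

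GMC101 worms carry human Aβ1-42 under the promoter of unc-54, the myosin heavy chain gene of body wall muscle, and a GFP marker under the promoter of the intestinal metallothionein gene mtl-2. CL2122 worms carry the empty unc-54 vector and the same GFP marker. Both strains grew on NGM plates with OP50 bacteria and were then moved to a higher temperature, which induces Aβ in GMC101, so that the control strain went through the same shift and the same hours. The labels give the stage as L1, while the study's methods give synchronized worms grown to young adults before the shift. The transgene has no entry in the tables, and its own transcript was not measured here. The question addressed is which transcripts of the Aβ strain differed between the later and the earlier time.

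As background, a young adult hermaphrodite has finished its last molt and changes from making sperm to making oocytes, which it fertilizes with stored sperm, and embryos build up in the uterus before they are laid. The cuticle is a collagen matrix secreted by the epidermis around each molt. The intestine makes yolk proteins for the oocytes and is also the main site of fat metabolism and of defense against ingested microbes. Aβ made in body wall muscle of this strain forms aggregates and leads to paralysis, and small heat shock proteins, autophagy and the lysosome are the usual readouts of how cells handle such aggregates.

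The GMC101 columns held 25283085 reads on genes at 24 h and 20533034 at 8 h, and the CL2122 columns 24583097 at 24 h and 22520669 at 8 h. Values are given as whole reads, as counts scaled to the column's total as CPM (counts per 1000000 reads), and as the log2 ratio of CPM, 24 h over 8 h. The limit that a count of 0 allows, 3 reads, came to 0.119 CPM in GMC101 at 24 h and 0.146 CPM at 8 h. Intervals are exact 95% Clopper-Pearson intervals of the 24 h share of a gene's reads, turned into log2 ratios, and cover counting error only, not the spread between worm populations. The 10 genes with the most reads held 6.90% of the reads at 24 h and 6.87% at 8 h in GMC101. The defining genes of body wall muscle (unc-54, 2047 CPM at 24 h and 2928 CPM at 8 h), of the intestine (vit-6, 15402 CPM at 24 h and 16750.0 CPM at 8 h) and of the germ line (gld-1, 1141 CPM at 24 h and 1161 CPM at 8 h) were present at both times.

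Of the 18538 genes, 14369 had at least 1 CPM at either time in GMC101 and 4169 did not. In GMC101, 2004 genes were more than 2-fold higher at 24 h, which is 13.9% of those with at least 1 CPM, and 2025 were more than 2-fold lower, which is 14.1%. A further 72.0% lay within a log2 ratio of 1 of no difference. The median log2 ratio was 0.13, with quartiles at -0.34 and 0.53. At a log2 ratio beyond 3, 513 genes were higher and 446 lower, and beyond 4, 223 were higher and 67 lower, so the far end of the distribution held more higher genes. The counting interval lay wholly beyond 2-fold for 1256 of the higher and 1507 of the lower genes. In these counts and in the list medians below, a value of 3 reads or fewer was set to 3 reads, which concerned 255 of the higher and 46 of the lower genes. With TMM scaling the median of all genes was -0.01 in place of 0.13, so that list medians are to be read against the median of all genes.

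In CL2122, 14973 genes reached 1 CPM at either time, and the same ratio was past 2-fold upward for 3741 genes (25%) and downward for 2292 (15.3%), with a median of 0.31. These shares are the background against which the counts of list members in each strain stand. They depended on level in GMC101. Of genes with 1 to 10 CPM at the higher time, 23.3% were higher and 21.6% lower, and of genes over 100 CPM, 3.75% and 5.94%. Few calls are thus usual in a list of abundant genes, and more in a list of low ones.

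**Figure D1:**
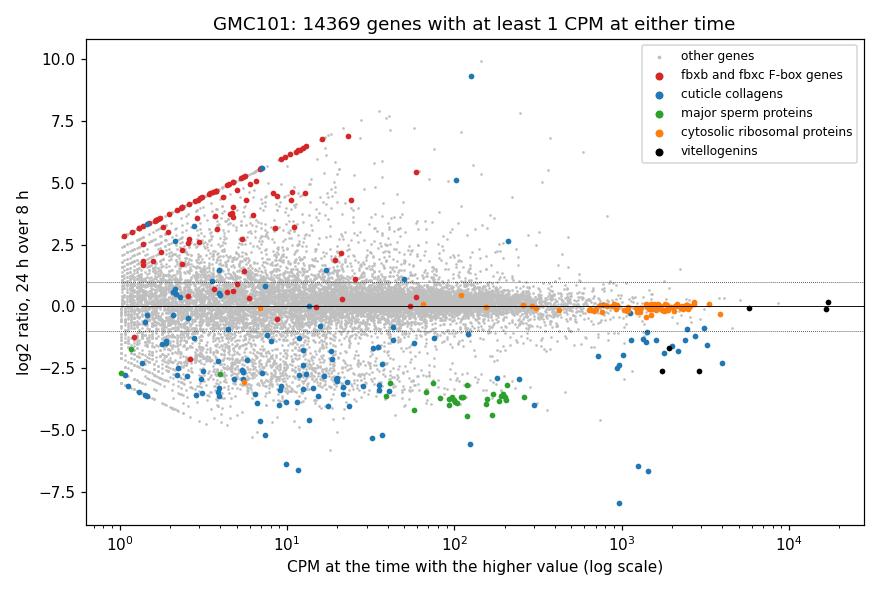
Each point is 1 of the 14369 genes with at least 1 CPM at either time in GMC101, with its CPM at the higher time on the x axis (log scale) and its log2 ratio, 24 h over 8 h, on the y axis. Dotted lines mark 2-fold. The major sperm proteins and most cuticle collagens sit below the lower line, the fbxb and fbxc F-box genes mostly above the upper one, and the ribosomal proteins close to 0 on the log2 scale.

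The 15 genes with the largest ratios were of mixed kinds, with 1 collagen gene, 3 C-type lectin genes and 2 F-box genes among them. Among genes with a symbol of their own, at least 10 CPM at the higher time and more than 3 reads at both, dpy-14 had the largest ratio. This collagen, required for body shape and known for its use in embryos (WBGene00001075, chromosome I, 6843589 to 6845134), had 3175 reads at 24 h and 4 at 8 h, a log2 ratio of 9.33 with an interval of 7.97 to 11.21. Its place rests on those 4 reads, and with a pseudocount of 1 CPM it stood at 6.73, below clec-266 at 6.91. Next came the C-type lectin domain gene clec-266 with 6252 reads (247 CPM) at 24 h and 22 reads (1.07 CPM) at 8 h and clec-196 with 1027 reads (40.6 CPM) at 24 h and 4 reads (0.195 CPM) at 8 h. The chitinase gene cht-1, whose product cleaves chitin, had 9399 reads (372 CPM) at 24 h and 68 reads (3.31 CPM) at 8 h, a ratio of 6.81 with an interval of 6.47 to 7.18.

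The other genes of that group have varied roles. The acyl-CoA synthetase gene acs-2, a known fasting-responsive gene of fatty acid oxidation, had 9236 reads (365 CPM) at 24 h and 163 reads (7.94 CPM) at 8 h, a log2 ratio of 5.52 with an interval of 5.30 to 5.76. The lysosomal lipase gene lipl-3, also known to be induced by fasting, had 833 reads (32.9 CPM) at 24 h and 12 reads (0.584 CPM) at 8 h. The flavin monooxygenase gene fmo-2 had 434 reads (17.2 CPM) at 24 h and 5 reads (0.244 CPM) at 8 h, and the non-coding RNA tts-1, known from long-lived worms and dauers, had 14934 reads (591 CPM) at 24 h and 159 reads (7.74 CPM) at 8 h. The others of the 15 were clec-60, fbxb-10, fbxa-163, the arrestin domain gene arrd-1, the bZIP factor gene zip-8, atz-1 and the acyltransferase gene oac-14, with log2 ratios between 5.49 and 7.21. All 15 were past 2-fold higher at 24 h in CL2122 too.

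At the low end, 7 of the 15 genes with the smallest ratios were cuticle collagens and 8 were sperm genes. The collagen gene col-81 had 98 reads (3.88 CPM) at 24 h and 19734 reads (961 CPM) at 8 h, a log2 ratio of -7.95 with an interval of -8.26 to -7.67. For col-129 the values were 360 reads (14.2 CPM) at 24 h and 29503 reads (1437 CPM) at 8 h, and for col-139 they were 353 reads (14 CPM) at 24 h and 25670 reads (1250.2 CPM) at 8 h. All 3 collagens had log2 ratios of -6.48 or lower. The other collagens of the group were col-147, col-133, col-149 and col-88, with log2 ratios between -5.56 and -4.62.

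Genes with 3 reads or fewer at 1 time and at least 10 CPM at the other were named apart, because few reads set their ratio. The invertebrate-type lysozyme gene ilys-3 had 3630 reads (144 CPM) at 24 h and 2 reads (0.0974 CPM) at 8 h, a log2 ratio of 10.53 with an interval of 8.67 to 13.57. The lectin gene clec-45 had 425 reads (16.8 CPM) at 24 h and 1 read (0.0487 CPM) at 8 h, and sdz-28, named as a downstream target of the embryonic factor SKN-1, had 448 reads (17.7 CPM) at 24 h and 2 reads (0.0974 CPM) at 8 h. The F-box genes fbxb-101 and fbxc-21 had 407 reads at 24 h and 2 at 8 h, and 330 reads at 24 h and 1 at 8 h. The only gene of this kind on the lower side was the collagen gene col-7, with 3 reads (0.119 CPM) at 24 h and 239 reads (11.6 CPM) at 8 h, a log2 ratio of -6.62 with an interval of -8.90 to -5.05.

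**Figure D2:**
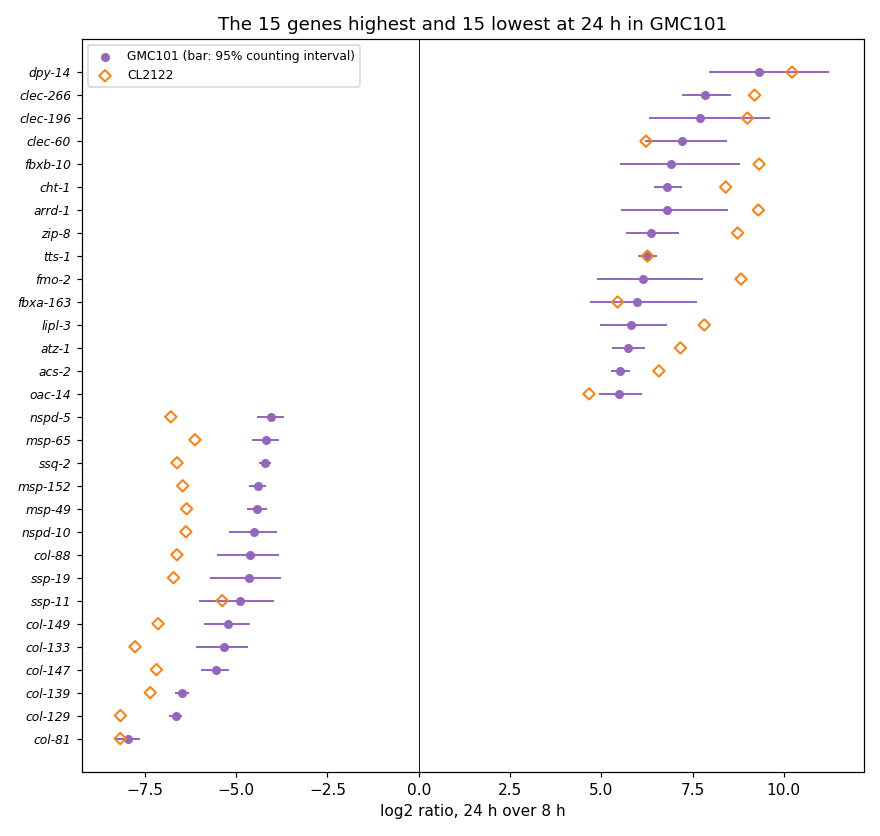
The 15 genes highest and the 15 lowest at 24 h in GMC101 by log2 ratio (x axis), with filled points and bars for GMC101 and its 95% counting interval, and open diamonds for CL2122. The GMC101 ratios run between 9.33 for dpy-14 and -7.95 for col-81, and the diamonds lie on the same side of 0 for each of the 30 genes.

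Across the gene lists, sperm genes, cuticle collagens and pharyngeal muscle genes had the lowest medians, and chemoreceptors and early embryo factors the highest. A list median beyond 1 on the log2 scale was seen for 6 of 47 lists. The lists of the core machinery, ribosome, proteasome, mitochondrial ribosome and respiratory chain, had medians between -0.12 and -0.03, with at most 1 member past 2-fold in each.

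**Figure D3:**
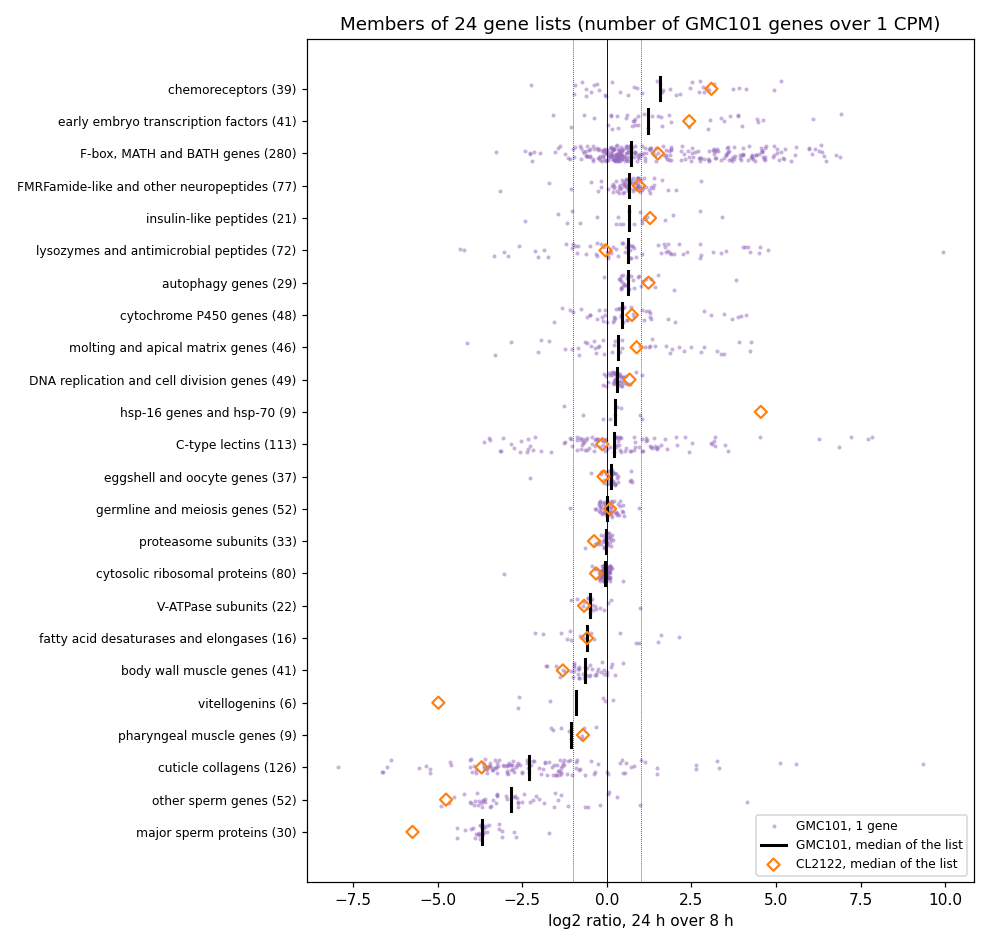
Log2 ratio, 24 h over 8 h (x axis), of the members of 24 gene lists with at least 1 CPM in GMC101, 1 point per gene, with a black bar at the list's median in GMC101 and an open diamond at its median in CL2122. The major sperm proteins stand lowest, with a median of -3.69, and the chemoreceptors highest, with 1.56, and the diamonds of the sperm, vitellogenin and hsp-16 lists lie farther from 0 than the bars.

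Among the genes of reproduction, those of sperm were lower at 24 h. All 30 major sperm protein genes with at least 1 CPM were lower at 24 h, with log2 ratios between -4.42 and -1.72 and a median of -3.69. These genes encode the cytoskeletal and signaling protein of nematode sperm. Their summed level was 274 CPM at 24 h and 3509 CPM at 8 h. The gene msp-31 had 516 reads (20.4 CPM) at 24 h and 5332 reads (259.7 CPM) at 8 h, msp-57 had 575 reads (22.7 CPM) at 24 h and 4244 reads (207 CPM) at 8 h and msp-49 had 140 reads at 24 h and 2441 at 8 h, the lowest ratio of the list at -4.42. Major sperm protein genes are near-identical copies, and how reads shared between copies were counted is not given in the sources used here, so the single values are uncertain, while all lie on 1 side. A further 4 copies are listed only in the 8 h table. As these are whole worms, fewer cells of a type and less RNA per cell cannot be told apart.

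Of 52 other sperm genes with at least 1 CPM, 44 were lower and 1 was higher, with a median of -2.83 and summed levels of 483 CPM at 24 h and 3085 CPM at 8 h. The sperm genes ssq-2 and ssq-4 had 485 reads (19.2 CPM) at 24 h and 7326 reads (357 CPM) at 8 h, and 1053 reads (41.6 CPM) at 24 h and 9416 reads (459 CPM) at 8 h. The small sperm-specific genes ssp-11 and nspd-10 had 10 reads at 24 h and 243 at 8 h, and 24 reads at 24 h and 442 at 8 h. All 11 ssp genes were lower, and 13 of 20 spe genes, which are named for spermatogenesis-defective mutants. The higher member was try-5, a trypsin-like protease gene known for activating sperm in seminal fluid, with 65 reads (2.57 CPM) at 24 h and 1 read (0.0487 CPM) at 8 h, a log2 ratio of 5.72 with an interval of 3.19 to 11.05. The next highest, spe-5, a subunit gene of the V-ATPase, had 550 reads (21.8 CPM) at 24 h and 228 reads (11.1 CPM) at 8 h, a log2 ratio of 0.97 with an interval of 0.74 to 1.20, and was not past 2-fold. The member with the most reads at 24 h, spe-39, which acts in vesicle traffic in many tissues, had 2103 reads (83.2 CPM) at 24 h and 1659 reads (80.8 CPM) at 8 h. The Argonautes alg-3 and alg-4, which act with small RNAs during sperm formation, had 9.85 CPM at 24 h and 41.6 CPM at 8 h, and 8.74 CPM at 24 h and 47 CPM at 8 h, log2 ratios of -2.08 and -2.43. They and sago-2 were the only 3 of 21 Argonaute genes past 2-fold, all lower, a share of 14.3%, near the 14.1% of all genes. The sperm histone H2A variant gene htas-1 had 35 reads (1.38 CPM) at 24 h and 378 reads (18.4 CPM) at 8 h.

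Few oocyte and germline transcripts passed 2-fold. Of 37 eggshell and oocyte genes, none was higher and 1 was lower, with a median of 0.14 and summed levels of 19104 CPM at 24 h and 16477 CPM at 8 h. The eggshell chondroitin proteoglycan gene cpg-2 had 2517 CPM at 24 h and 2118 CPM at 8 h, and the yolk receptor gene rme-2 had 892 CPM at 24 h and 895 CPM at 8 h. The permeability barrier gene perm-2 had the highest ratio of the list, 0.74 with an interval of 0.71 to 0.78, and cpg-9 the lowest, -2.28 with an interval of -2.50 to -2.05. Of 52 germline and meiosis genes, none was higher and 1, him-4, was lower, with a median of 0.02. The translational regulator gene gld-1 had a log2 ratio of -0.03, and the synaptonemal complex gene syp-1, at the top of the list, one of 0.95. The lower him-4 encodes hemicentin, an extracellular matrix protein that is not a meiosis factor, and had 25.1 CPM at 24 h and 53.4 CPM at 8 h.

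The 6 vitellogenin genes, which encode the yolk proteins, split in GMC101 into 3 that were lower and 3 that differed by less than 2-fold. The gene vit-1 had 11714 reads (463 CPM) at 24 h and 59188 reads (2883 CPM) at 8 h, a log2 ratio of -2.64 with an interval of -2.67 to -2.61. For vit-3 the log2 ratio was -2.60 with an interval of -2.63 to -2.56, and for vit-4 it was -1.69 with an interval of -1.72 to -1.66. The levels at 24 h were thus 0.161 times those at 8 h for vit-1 and 0.310 times for vit-4. By contrast, vit-2, vit-5 and vit-6, which carried most of the vitellogenin reads at both times, had log2 ratios of 0.17, -0.06 and -0.12. Per length, vit-2 stood at 3465 RPKM at 24 h and 3070.3 RPKM at 8 h and vit-3 at 58.6 RPKM at 24 h and 355 RPKM at 8 h. Vitellogenin genes are similar in sequence, and vit-3, vit-4 and vit-5 most of all, so that the split between those 3 copies is uncertain. Their sum over all 6 was 39410 CPM at 24 h and 44250 CPM at 8 h, or 3.94% and 4.43% of the GMC101 reads. In CL2122, 5 of the 6 were lower at 24 h, with a median of -4.98 and sums of 18044 CPM at 24 h and 53941 CPM at 8 h.

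Many transcripts of early embryos were higher at 24 h. Of 41 early embryo factors and target genes with at least 1 CPM, 22 were higher and 2 lower, with a median of 1.21. At a minimum of 10 CPM the median of this list was 0.78, so that its size rests in part on genes of few reads. Among the genes named next, ceh-51, tbx-43 and end-1 reached 1 CPM only at 24 h. A further 14 members are listed only in the 24 h table and 2 only in the 8 h table. The mesoderm homeobox gene ceh-51 had 73 reads (2.89 CPM) at 24 h and 4 reads (0.195 CPM) at 8 h, and the T-box gene tbx-43 had 90 reads (3.56 CPM) at 24 h and 5 reads (0.244 CPM) at 8 h. The pharynx and gut organ identity gene pha-4 had 819 reads (32.4 CPM) at 24 h and 231 reads (11.2 CPM) at 8 h, a log2 ratio of 1.53 with an interval of 1.31 to 1.74, and the muscle factor gene hlh-1 had 122 reads (4.83 CPM) at 24 h and 33 reads (1.61 CPM) at 8 h, one of 1.59 with an interval of 1.02 to 2.19. The endoderm gene end-1 had 41 reads (1.62 CPM) at 24 h and 1 read (0.0487 CPM) at 8 h, a log2 ratio of 5.06 with an interval of 2.50 to 10.39. The maternally supplied factors skn-1 and pal-1, which are loaded into oocytes, had log2 ratios of 0.12 and 0.11, close to the median of all genes. Of 17 sdz genes with at least 1 CPM, 10 were higher and 2 were lower, and 5 more are among the genes of at least 1 CPM that the 24 h table lists alone.

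Genes of DNA replication and cell division shifted little. Of 49, 1 was higher and none was lower, with a median of 0.29. The higher one was rnr-2, the small subunit of ribonucleotide reductase, with 21569 reads (853 CPM) at 24 h and 8519 reads (415 CPM) at 8 h, a log2 ratio of 1.04. Among 37 histone genes, 10 were higher and 6 lower, with a median of 0.57. The linker histone gene his-24 had 4408 reads (174 CPM) at 24 h and 776 reads (37.8 CPM) at 8 h, and the replication-independent H3.3 gene his-72 had 10095 reads (399 CPM) at 24 h and 4004 reads (195 CPM) at 8 h. Histone genes are near-identical copies and mostly lack poly(A) tails, which the selection of mRNA needs, so that the clustered copies such as his-10, with 99 reads at 24 h and 8 at 8 h, are uncertain.

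**Figure D4:**
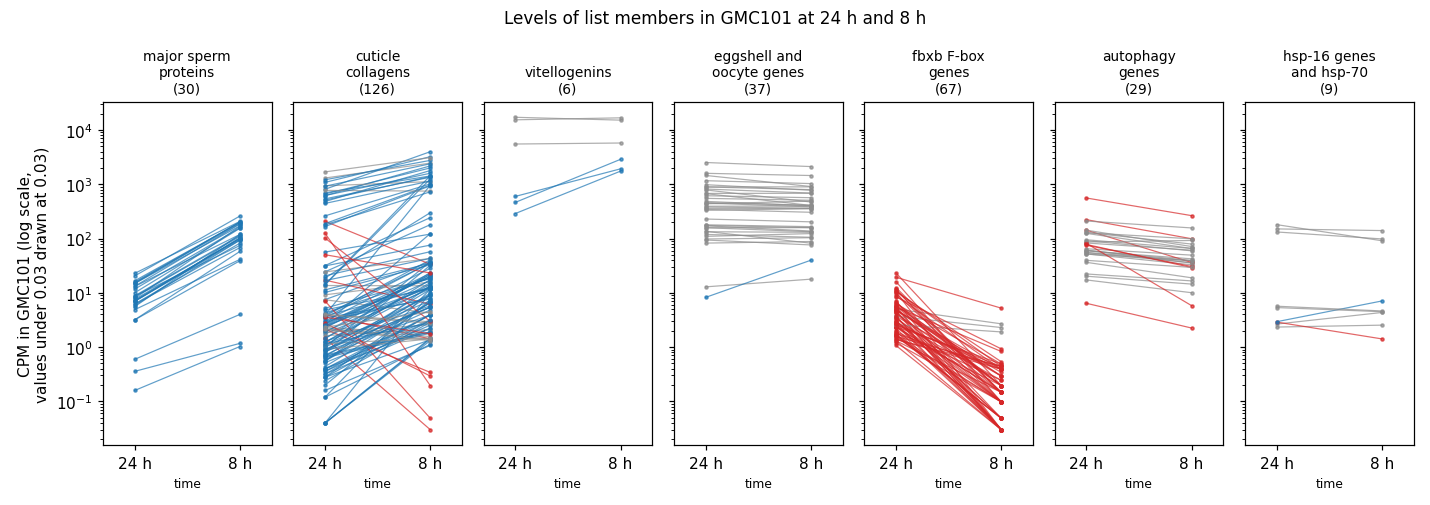
CPM in GMC101 (y axis, log scale, values under 0.03 drawn at 0.03) at 24 h and 8 h for the members of 7 gene groups, 1 line per gene, red for genes more than 2-fold higher at 24 h, blue for more than 2-fold lower and grey for the rest. All 30 major sperm protein lines are blue, 64 of the 67 fbxb lines are red, and all 37 eggshell and oocyte lines are grey except 1.

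Cuticle collagens were the largest group on the lower side. Of the collagen genes with at least 1 CPM, 96 (76.2%) were lower and 11 (8.73%) were higher, with a median of -2.31. Their summed level was 15037 CPM at 24 h and 42081 CPM at 8 h, and the genes with a col symbol held 1.47% of the reads at 24 h and 4.19% at 8 h. The collagen gene with the most reads at 8 h, col-124, had 20408 reads (807 CPM) at 24 h and 81748 reads (3981 CPM) at 8 h, and col-20 had 27350 reads (1082 CPM) at 24 h and 66165 reads (3222 CPM) at 8 h. The one with the most reads at 24 h, col-140, had 42692 reads (1689 CPM) at 24 h and 63536 reads (3094 CPM) at 8 h and a log2 ratio of -0.87, within 2-fold. Per length, col-140 stood at 1743 RPKM at 24 h and 3193 RPKM at 8 h and col-124 at 706 RPKM at 24 h and 3480.2 RPKM at 8 h, so that their order differed between the times.

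The 11 higher collagens were led by dpy-14, given above, and by dpy-17, a collagen needed for body length, with 2586 reads (102 CPM) at 24 h and 61 reads (2.97 CPM) at 8 h. The gene col-95 had 5268 reads (208 CPM) at 24 h and 689 reads (33.6 CPM) at 8 h, a log2 ratio of 2.63 with an interval of 2.52 to 2.75, while in CL2122 it had 842 reads at 24 h and 1477 at 8 h. The collagen gene sqt-3, whose mutants have short and squat bodies, had 1272 reads (50.3 CPM) at 24 h and 476 reads (23.2 CPM) at 8 h. Others, such as col-84 and dpy-3, stayed under 3 CPM at both times.

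Molting and apical matrix genes were split. Of 46 with at least 1 CPM, 19 were higher and 8 lower, with a median of 0.31 and summed levels of 753 CPM at 24 h and 507 CPM at 8 h. At a minimum of 10 CPM the median of this list was 1.87. The fibrillin-like gene fbn-1, a matrix gene known to help shape the embryo, had 1250 reads (49.4 CPM) at 24 h and 54 reads (2.63 CPM) at 8 h. The zona pellucida domain gene noah-1, part of the embryonic apical matrix, had 66.5 CPM at 24 h and 5.99 CPM at 8 h, and sym-1, a leucine-rich repeat matrix gene of embryos, had 1016 reads (40.2 CPM) at 24 h and 80 reads (3.90 CPM) at 8 h. The nuclear receptor gene nhr-25, needed for epidermal development and molting, had 11.4 CPM at 24 h and 2.05 CPM at 8 h. On the lower side stood the cuticlin genes cut-2 and cut-4, with log2 ratios of -2.03 and -2.82, and the peroxidase gene mlt-7, needed for molting, at -1.02.

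The hedgehog-related genes, small secreted proteins and patched-like receptors that take part in molting and epidermal matrix, also went both ways. Of 48, 11 were higher and 16 lower, with a median of -0.06. The ligand gene wrt-10 had 603 reads (23.9 CPM) at 24 h and 24 reads (1.17 CPM) at 8 h, a log2 ratio of 4.35. On the lower side, the ligand gene grd-10 had 135 reads (5.34 CPM) at 24 h and 1147 reads (55.9 CPM) at 8 h and the ligand gene grl-7 had 5 reads at 24 h and 52 at 8 h. Among the receptors, ptr-10 had 65 reads at 24 h and 4 at 8 h, while ptr-16 had 8 reads at 24 h and 71 at 8 h.

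Muscle genes, which include the promoter gene of the transgene, leaned to the lower side. Of 41 body wall muscle genes, 7 (17.1%) were lower, near the 14.1% of all genes, none was higher, and 6 had a log2 ratio above 0. Their median was -0.65, below the median of all genes at 0.13, and their summed level was 8840 CPM at 24 h and 14103 CPM at 8 h. The promoter gene unc-54 had 51760 reads (2047 CPM) at 24 h and 60116 reads (2928 CPM) at 8 h, a log2 ratio of -0.52 with an interval of -0.53 to -0.50. The tables cannot part reads of the transgene's unc-54 segments from those of the endogenous gene, so that unc-54 is uncertain. In CL2122, unc-54 had 25461 reads at 24 h and 95186 at 8 h, a log2 ratio of -2.03. The second body wall myosin gene, myo-3, had 98.8 CPM at 24 h and 127 CPM at 8 h, a log2 ratio of -0.36.

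The 7 lower muscle genes were the perlecan gene unc-52, the troponin T gene tnt-2, the myosin light chain gene mlc-1, the calponin-like gene clik-1, the troponin I gene unc-27, the immunoglobulin domain gene dim-1 and the tropomyosin gene lev-11. Perlecan anchors muscle attachment sites in the basement membrane, and unc-52 had 2575 reads (102 CPM) at 24 h and 7286 reads (355 CPM) at 8 h, a log2 ratio of -1.80 with an interval of -1.87 to -1.74. The gene tnt-2 had 1490 reads (58.9 CPM) at 24 h and 4137 reads (201 CPM) at 8 h, and lev-11 had 9990 reads (395 CPM) at 24 h and 17018 reads (829 CPM) at 8 h. The highest ratio of the list was that of unc-78, an actin-interacting protein that takes part in filament turnover, at 0.47 with an interval of 0.33 to 0.62.

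Of 9 pharyngeal muscle genes, 5 were lower and none was higher, with a median of -1.06. The pharyngeal myosin gene myo-1 had 2588 reads (102 CPM) at 24 h and 6299 reads (307 CPM) at 8 h, and the troponin T gene tnt-4 had 784 reads (31 CPM) at 24 h and 2001 reads (97.5 CPM) at 8 h. The list also holds act-5, an actin of intestinal microvilli, which had 8125 reads (321 CPM) at 24 h and 16971 reads (827 CPM) at 8 h. It is 1 of the 5 lower genes, and the list's median was not computed without it. In CL2122, 3 of the 9 were lower, with a median of -0.71. The second promoter gene, mtl-2, had 368 reads (14.6 CPM) at 24 h and 397 reads (19.3 CPM) at 8 h, a log2 ratio of -0.41 with an interval of -0.62 to -0.20, and is likewise shared with the marker transgene.

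Neuropeptide genes leaned to the higher side, while insulin-like peptide genes, at low levels, had large shares on both sides. Of 77 neuropeptide genes with at least 1 CPM, 15 (19.5%) were higher and 3 (3.90%) lower, against 13.9% and 14.1% of all genes. A log2 ratio above 0 was seen for 70, with a median of 0.66. The gene nlp-51 had 422 reads (16.7 CPM) at 24 h and 83 reads (4.04 CPM) at 8 h, flp-21, which encodes a ligand of the receptor NPR-1, had 291 reads (11.5 CPM) at 24 h and 92 reads (4.48 CPM) at 8 h, and nlp-40, an intestinal peptide that times defecation, had 192 CPM at 24 h and 158 CPM at 8 h. The lowest was nlp-4, with 17 reads at 24 h and 122 at 8 h. Of 21 insulin-like peptide genes, 8 were higher and 4 lower, with a median of 0.65. The gene ins-17 had 399 reads (15.8 CPM) at 24 h and 141 reads (6.87 CPM) at 8 h, and ins-22 had 33 reads at 24 h and 4 at 8 h. The dense-core vesicle gene ida-1, which serves neuropeptide release, was the only one of 36 synaptic genes that was higher, at 2021 reads (79.9 CPM) at 24 h and 754 reads (36.7 CPM) at 8 h, and the amine synthesis gene bas-1 the only one that was lower, at 11.5 CPM at 24 h and 23.2 CPM at 8 h. The median of the synaptic list was 0.11, that of 18 acetylcholine and GABA receptor genes was -0.29, and no receptor gene passed 2-fold.

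Most chemoreceptor genes, which encode the receptors of sensory neurons, were too low to be read. Of 445 in both tables, 39 had at least 1 CPM, of which 22 were higher and 1 was lower, with a median of 1.56. The gene srx-13 had 81 reads at 24 h and 5 at 8 h, and sri-40, the member with the most reads, had 1114 reads (44.1 CPM) at 24 h and 1180 reads (57.5 CPM) at 8 h, a log2 ratio of -0.38. At a minimum of 10 CPM the median of this list was -0.47, so that its sign rests on genes of few reads. A further 545 chemoreceptor genes are listed in the 24 h table alone and 69 in the 8 h table alone.

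The heat-inducible chaperones had reads at both times in GMC101, and few of them passed 2-fold. Of 9 hsp-16 and hsp-70 genes, 1 was higher and 1 lower, with a median of 0.25 and summed levels of 484 CPM at 24 h and 354 CPM at 8 h. The small heat shock protein gene hsp-16.2, whose product binds unfolded proteins and which is a common reporter of Aβ stress, had 3339 reads (132 CPM) at 24 h and 2017 reads (98.2 CPM) at 8 h, a log2 ratio of 0.43 with an interval of 0.35 to 0.51. The gene hsp-16.41 had 3801 reads (150.3 CPM) at 24 h and 2876 reads (140.1 CPM) at 8 h, and hsp-70, the inducible chaperone ATPase, had 4558 reads (180.3 CPM) at 24 h and 1868 reads (91 CPM) at 8 h, a log2 ratio of 0.99 with an interval of 0.91 to 1.07, which is just inside 2-fold. The other hsp-70 genes, F44E5.4 and F44E5.5, had log2 ratios of 0.25 and 0.29, with intervals that include 0. The genes hsp-16.1, hsp-16.48, hsp-16.49 and hsp-16.11 lie in this order within 1 cluster on chromosome V. The outer pair and the inner pair are each near-identical copies, had 29 to 145 reads per gene at either time, and are uncertain one by one. Of these 4, hsp-16.48 had a log2 ratio of 1.03 and hsp-16.49 one of -1.27.

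In CL2122, all 9 of these genes were more than 2-fold higher at 24 h, with a median of 4.55. There hsp-16.2 had 3374 reads at 24 h and 65 at 8 h, and hsp-16.41 had 2780 reads at 24 h and 50 at 8 h. The gene hsp-70 had 972 reads at 24 h and 38 at 8 h in CL2122. At 8 h, hsp-16.2 stood at 98.2 CPM in GMC101 and 2.89 CPM in CL2122, and at 24 h at 132 CPM in GMC101 and 137 CPM in CL2122. The difference between the strains' ratios was not tested, as each rests on 1 value per time.

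The constitutive chaperones hardly differed. None of 25 HSP90, HSC70 and co-chaperone genes passed 2-fold in either direction, with a median of -0.04. The gene hsp-90 had 3840.2 CPM at 24 h and 2995 CPM at 8 h, and hsp-1, the cytosolic HSC70, had 2848 CPM at 24 h and 3090.0 CPM at 8 h. Among 24 genes of endoplasmic reticulum stress, 1 was higher, the thioredoxin-like dnj-27 with 1633 reads (64.6 CPM) at 24 h and 548 reads (26.7 CPM) at 8 h, and the median was 0.13. The calreticulin gene crt-1 had a log2 ratio of 0.31. Of 14 mitochondrial stress genes, hsp-60, the mitochondrial chaperonin, was lower, with 10854 reads (429 CPM) at 24 h and 18517 reads (902 CPM) at 8 h, a log2 ratio of -1.07 with an interval of -1.11 to -1.04, while hsp-6, the mitochondrial HSP70, had one of -0.20.

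Autophagy genes had a median above that of all genes, and V-ATPase subunits one below it. Of 29 autophagy genes, 7 were higher and none was lower, 28 had a log2 ratio above 0, and the median was 0.62, with summed levels of 2850 CPM at 24 h and 1619 CPM at 8 h. The gene epg-2, whose coiled-coil product links protein aggregates to degradation in embryos, had 81.6 CPM at 24 h and 5.80 CPM at 8 h, a log2 ratio of 3.82 with an interval of 3.55 to 4.09. The cargo receptor gene sqst-1, the worm p62, had 3607 reads (143 CPM) at 24 h and 744 reads (36.2 CPM) at 8 h, a ratio of 1.98 with an interval of 1.86 to 2.09. The ubiquitin-like gene lgg-1, whose lipid-bound product coats autophagosomes, had 14121 reads (559 CPM) at 24 h and 5424 reads (264 CPM) at 8 h, a ratio of 1.08 with an interval of 1.03 to 1.13, and its relative lgg-2 had 5632 reads (223 CPM) at 24 h and 2034 reads (99.1 CPM) at 8 h. The others past 2-fold were atg-10 and epg-9, with log2 ratios of 1.52 and 1.42, and atg-2, with 1906 reads at 24 h and 627 at 8 h. The nucleation gene bec-1 had 55.5 CPM at 24 h and 38.8 CPM at 8 h, a log2 ratio of 0.51.

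The genes named here for fusion between autophagosome and lysosome had log2 ratios below the autophagy median of 0.62. So had epg-8 and atg-18 of the autophagy list, at 0.39 and 0.42. The SNARE genes syx-17 and snap-29 had log2 ratios of -0.01 and 0.37, the small GTPase gene rab-7 had 0.34, and the lysosomal membrane gene lmp-1 had 0.45. In CL2122, 19 autophagy genes were higher, with a median of 1.23.

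The V-ATPase acidifies lysosomes with a membrane sector and a cytosolic sector. Of 22 subunit genes, 1 was lower and none was higher, and 3 had a log2 ratio above 0. The median was -0.49, and the summed level was 4555 CPM at 24 h and 6301 CPM at 8 h. The lower one was vha-5, a membrane sector subunit used in the epidermis, with 1990 reads (78.7 CPM) at 24 h and 3360 reads (164 CPM) at 8 h, a log2 ratio of -1.06 with an interval of -1.14 to -0.98. The intestinal subunit vha-6 had 7219 reads (286 CPM) at 24 h and 7367 reads (359 CPM) at 8 h, a log2 ratio of -0.33 with an interval of -0.38 to -0.28, and vha-2, the subunit with the most reads, had 660.0 CPM at 24 h and 884 CPM at 8 h. In CL2122, 5 were lower and the median was -0.67.

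Cathepsins, the proteases of lysosomes, held few genes past 2-fold. Of 21, 3 (14.3%) were higher, near the 13.9% of all genes, and 1 (4.76%) was lower, against 14.1% of all genes. Their median was 0.28. The cathepsin B gene cpr-5 was the lower one, with 8452 reads (334 CPM) at 24 h and 14850 reads (723 CPM) at 8 h, a log2 ratio of -1.11 with an interval of -1.15 to -1.07, and its relative cpr-8 had 483 reads (19.1 CPM) at 24 h and 736 reads (35.8 CPM) at 8 h, a log2 ratio of -0.91. Also a cathepsin B gene, cpr-1 had 10737 reads (425 CPM) at 24 h and 3977 reads (194 CPM) at 8 h, a ratio of 1.13 with an interval of 1.08 to 1.19. The aspartic protease gene asp-1, known from the intestine, had 2424 CPM at 24 h and 1958 CPM at 8 h, a log2 ratio of 0.31, and the related asp-11 and asp-17 had 134 reads at 24 h and 11 at 8 h, and 160 reads at 24 h and 37 at 8 h. None of 33 proteasome subunit genes passed 2-fold, with a median of -0.03.

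Lipid genes went in both directions. Of 16 desaturase and elongase genes, which make polyunsaturated and branched fatty acids, 3 were higher and 6 lower, with a median of -0.58. The summed level had the other sign, with 5603 CPM at 24 h and 3811 CPM at 8 h. All 3 that were higher are desaturases, a split made after the values were seen. The delta-12 desaturase gene fat-2 had 56659 reads (2241 CPM) at 24 h and 16203 reads (789 CPM) at 8 h, a log2 ratio of 1.51 with an interval of 1.48 to 1.53, fat-3 had 12021 reads (475 CPM) at 24 h and 3208 reads (156 CPM) at 8 h, and the palmitoyl-CoA desaturase gene fat-5 had 1513 reads (59.8 CPM) at 24 h and 282 reads (13.7 CPM) at 8 h. All 6 that were lower are elongases, among them elo-5 and elo-6, which make branched-chain fatty acids, with 3222 reads (127 CPM) at 24 h and 6733 reads (328 CPM) at 8 h, and 5105 reads (202 CPM) at 24 h and 9470 reads (461 CPM) at 8 h. The stearoyl-CoA desaturase genes fat-6 and fat-7 had log2 ratios of 0.39 and -0.81.

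Of 66 genes of fatty acid oxidation and binding, 10 (15.2%) were higher, near the 13.9% of all genes, and 14 (21.2%) were lower, against 14.1%. Their median of 0.16 was near the 0.13 of all genes. Beside acs-2, the fatty acid binding protein gene lbp-1 had 5951 reads at 24 h and 952 at 8 h. On the lower side, the acyl-CoA dehydrogenase genes acdh-8, acdh-5 and acdh-2 had log2 ratios of -3.23, -2.56 and -2.16. The short/branched-chain dehydrogenase gene acdh-1, a known reporter of propionate and diet, had 9274 reads (367 CPM) at 24 h and 21170 reads (1031 CPM) at 8 h, a log2 ratio of -1.49 with an interval of -1.53 to -1.46, and in CL2122 42 reads at 24 h and 19044 at 8 h. Of 16 lipases, 5 were higher and 3 lower, with a median of 0.51. The lysosomal lipase genes lipl-1 and lipl-2, of the same fasting-responsive group as lipl-3, had 939 reads at 24 h and 60 at 8 h, and 343 reads at 24 h and 9 at 8 h. The adipose triglyceride lipase gene atgl-1 had a log2 ratio of 0.51.

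Detoxification and stress enzymes were mixed. Of 48 cytochrome P450 genes, 16 were higher and 4 lower, with a median of 0.44, and cyp-13B1 led with 278 reads (11 CPM) at 24 h and 13 reads (0.633 CPM) at 8 h. The P450 gene with the most reads, cyp-31A2, which acts in the eggshell, had 128 CPM at 24 h and 98.9 CPM at 8 h. Of 97 glucuronosyltransferase and glutathione transferase genes, 19 (19.6%) were higher and 15 (15.5%) lower, against 13.9% and 14.1% of all genes. Their median was -0.10 and, on the other side, their summed levels were 1784 CPM at 24 h and 1634 CPM at 8 h. The glutathione transferase gene gst-24 had 5578 reads (221 CPM) at 24 h and 212 reads (10.3 CPM) at 8 h, a log2 ratio of 4.42 with an interval of 4.22 to 4.62, while in CL2122 it had 412 reads at 24 h and 245 at 8 h. Of 24 superoxide dismutase, catalase and related genes, 6 were higher and 2 lower, with a median of 0.28 and, on the other side, summed levels of 1758 CPM at 24 h and 1803 CPM at 8 h. The catalase gene ctl-2 had 2474 reads (97.9 CPM) at 24 h and 911 reads (44.4 CPM) at 8 h, and the mitochondrial superoxide dismutase gene sod-3, a target of DAF-16, had 67 reads at 24 h and 26 at 8 h. The copper/zinc superoxide dismutase gene sod-5 had 35 reads at 24 h and 0 at 8 h, at least 9.47-fold higher at 24 h. Of 10 metal-binding genes, the metallothionein gene mtl-1 had 170 reads at 24 h and 13 at 8 h, and the ferritin gene ftn-1 had 728 reads (28.8 CPM) at 24 h and 93 reads (4.53 CPM) at 8 h.

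Defense genes went in both directions. Of 113 C-type lectin genes with at least 1 CPM, 35 were higher and 23 lower, with a median of 0.22 and summed levels of 4941 CPM at 24 h and 3435 CPM at 8 h. The pathogen-responsive lectin gene clec-60 had 1457 reads (57.6 CPM) at 24 h and 8 reads (0.390 CPM) at 8 h, a log2 ratio of 7.21 with an interval of 6.23 to 8.42, and clec-87, the lectin gene with the most reads, had a log2 ratio of 0.38. On the lower side, clec-57 and clec-153 had 17 reads at 24 h and 155 at 8 h, and 23 reads at 24 h and 206 at 8 h.

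Of 72 lysozyme and antimicrobial peptide genes, 28 were higher and 12 lower, with a median of 0.64. The lysozyme gene lys-2 had 6075 reads (240.3 CPM) at 24 h and 1249 reads (60.8 CPM) at 8 h, a log2 ratio of 1.98 with an interval of 1.89 to 2.07, and lys-1 had one of 0.46. The invertebrate-type lysozymes ilys-2 and ilys-5 had 311 reads at 24 h and 11 at 8 h, and 6351 reads at 24 h and 10274 at 8 h. The infection-responsive genes irg-1, irg-2 and irg-4 had log2 ratios of 4.02, 3.52 and 1.69. The saposin-like peptide gene spp-17 was the lowest of the list with more than 3 reads at both times, at 582 reads (23 CPM) at 24 h and 4725 reads (230.1 CPM) at 8 h, and 9 of the 11 fipr genes, small peptides whose role is not established, were lower.

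F-box and related genes, which encode substrate adaptors of SCF ubiquitin ligases, and the MATH and BATH genes, which include adaptors of CUL-3 ligases, held the largest number of higher genes of the 47 lists. Of 280 with at least 1 CPM, 128 were higher and 13 lower, with a median of 0.73. Their summed level was 3443 CPM at 24 h and 2329 CPM at 8 h. Of the 280, 53 had 3 reads or fewer at 1 time, and the minimum of 1 CPM alone puts such genes past 2-fold. Within the list the symbol families differed, a split made after their values were seen. In the fbxb family 64 of 67 genes were higher and none was lower, with summed levels of 339 CPM at 24 h and 24.4 CPM at 8 h. As 37 of the 67 had 3 reads or fewer at 8 h and were set to 3 reads, the fbxb median of 4.02 is a lower limit. These 37 reached 1 CPM only at 24 h, so that their call as higher was fixed by the minimum and adds no support. In the fbxc family 21 of 31 were higher and 2 lower, and in the fbxa family 32 of 124 were higher and 10 lower, with medians of 2.61 and 0.36.

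Single members show how low most of these genes were at 8 h. The gene fbxb-10 had 587 reads (23.2 CPM) at 24 h and 4 reads (0.195 CPM) at 8 h, a log2 ratio of 6.90 with an interval of 5.53 to 8.78, and fbxb-13 had 316 reads at 24 h and 3 at 8 h. The gene fbxc-51 had 1495 reads (59.1 CPM) at 24 h and 28 reads (1.36 CPM) at 8 h, a ratio of 5.44 with an interval of 4.90 to 6.03, whereas fbxc-50 had 1372 reads (54.3 CPM) at 24 h and 1099 reads (53.5 CPM) at 8 h and a ratio of 0.02. The gene fbxa-163 had 385 reads (15.2 CPM) at 24 h and 5 reads (0.244 CPM) at 8 h, against 143 reads at 24 h and 1 at 8 h in CL2122. Members of these families resemble each other in sequence, so that single values are uncertain. In CL2122 the fbxb median, likewise a lower limit, was 6.12, with sums of 1171 CPM at 24 h and 30.4 CPM at 8 h.

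The Skp1-related genes, whose products join F-box proteins to the cullin of the same ligases, showed the same direction. Of 19 skr genes, 11 were higher and none was lower, with a median of 1.59 and summed levels of 869 CPM at 24 h and 548 CPM at 8 h. The gene skr-21 had 1201 reads (47.5 CPM) at 24 h and 109 reads (5.31 CPM) at 8 h, a log2 ratio of 3.16 with an interval of 2.88 to 3.46, and skr-7 had 1107 reads (43.8 CPM) at 24 h and 179 reads (8.72 CPM) at 8 h. The most abundant members, skr-1 and skr-2, differed little, at log2 ratios of 0.34 and 0.14. The family was singled out after its values were seen, and skr-1 and skr-2 are close copies.

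Few nuclear hormone receptors were lower at 24 h, 4 of 178 (2.25%) against 14.1% of all genes. The share that was higher, 32 of 178 (17.98%), was near the 13.9% of all genes. Their median was 0.28, against 0.13 for all genes. The receptor gene nhr-49, a regulator of fat metabolism, had 168 CPM at 24 h and 111 CPM at 8 h, a log2 ratio of 0.59. The gene nhr-114, which acts in the intestine and germ line response to diet, was the lowest of the list at 953 reads (37.7 CPM) at 24 h and 3564 reads (174 CPM) at 8 h, a log2 ratio of -2.20 with an interval of -2.31 to -2.10.

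The protein synthesis and energy genes that hold much of the library stayed together. Of 80 cytosolic ribosomal protein genes, none was higher and 1 was lower, with a median of -0.06 and summed levels of 112203 CPM at 24 h and 116216 CPM at 8 h. The lower one, rpl-42, had 17 reads at 24 h and 114 at 8 h, and rla-0, the member with the most reads at 24 h, had a log2 ratio of 0.09. Translation elongation factor gene eef-1A.1 had 8612 CPM at 24 h and 7914 CPM at 8 h. Of 50 nuclear respiratory chain genes, 1 was lower, cyc-2.2, a second cytochrome c gene, with 55 reads at 24 h and 566 at 8 h, and the ATP synthase gene atp-2 had a log2 ratio of -0.42.

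Transcripts of the mitochondrial genome had a median below that of all genes. Of its 14 genes with at least 1 CPM, 3 were lower and 1 was higher, with a median of -0.76, and the genome held 0.783% of the reads at 24 h and 1.35% at 8 h. The cytochrome oxidase gene ctc-1 had 63354 reads (2506 CPM) at 24 h and 93407 reads (4549 CPM) at 8 h, a log2 ratio of -0.86 with an interval of -0.87 to -0.85, and the cytochrome b gene ctb-1 had 16297 reads (645 CPM) at 24 h and 28884 reads (1407 CPM) at 8 h. The gene that was higher, MTCE.7, is a ribosomal RNA gene of the mitochondrion, with 3622 reads (143 CPM) at 24 h and 1097 reads (53.4 CPM) at 8 h. Ribosomal RNA is read in these libraries only as far as it escapes the selection of mRNA, and the part of that step in this value was not tested.

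By position and level, the called genes were not spread evenly. Of 5548 genes with 1 to 10 CPM at the higher time, 23.3% were higher and 21.6% lower, while of 2510 genes over 100 CPM, 3.75% were higher and 5.94% lower. Among the genes of up to 1021 bases, 17.6% were higher and 18.8% lower, and among those over 1719 bases, 8.71% and 8.42%. The autosomes and the X differed in balance, with 11.9% higher and 18.8% lower on chromosome IV, 17.4% and 14.3% on chromosome II, and 16% and 10.7% on the X, while their medians lay between 0.08 and 0.16. Of 402 pseudogenes, 89 were higher and 76 lower.

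Some stretches of chromosome stood out, chosen as the extremes after all windows had been seen. Of 145 genes on chromosome II from 1000001 to 2000000, 68 (46.9%) were higher, and 32 of the 68 were F-box, MATH or BATH genes, of 53 such genes tested there. Of 150 genes on chromosome IV from 5000001 to 6000000, 65 (43.3%) were lower, and 12 of the 65 were genes of the sperm lists, which is all such genes tested there.

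The join leaves out genes listed at 1 time only, nearly all of them low. The 24 h table lists 3377 genes that the 8 h table does not, of which 1051 had 0 reads in GMC101 and 115 had at least 1 CPM. Among these 115, 28 are fbxb genes, the group that was also higher among the joined genes. The F-box gene fbxb-66 had 724 reads at 24 h, and hch-1, the metalloprotease that lets embryos hatch, had 612 reads (24.2 CPM). The 8 h table lists 639 genes that the 24 h table does not, of which 14 had at least 1 CPM in GMC101 and none had 10 CPM. The most abundant was fipr-7 with 97 reads, and the sperm genes spe-27 and msp-63 had 32 and 30. No fold is given for these genes, since a gene that a table does not list has no value at that time.

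Set beside the control strain, most of the 2-fold differences of GMC101 went the same way and were of smaller size. Of 14116 genes with at least 1 CPM at either time in both strains, 1942 were higher in GMC101 and 3175 in CL2122, of which 1714 were shared, or 88.3% of the GMC101 and 54% of the CL2122 genes. On the lower side, 1910 genes in GMC101 and 2198 in CL2122 shared 1628, or 85.2% and 74.1%. Among the 1714 higher genes shared by the strains, the GMC101 ratio was farther from 0 than the CL2122 ratio in 282. Among the 1628 shared lower genes it was farther from 0 in 310. Across 8820 genes with at least 10 CPM, Pearson's r between the strains' ratios was 0.90, given as a description, since genes are not replicates and each pair of columns shares its tables and batches.

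The sizes of the differences were read by group. The median of the major sperm proteins was -3.69 in GMC101 and -5.74 in CL2122, that of the other sperm genes -2.83 and -4.75, that of the collagens -2.31 and -3.70, and that of the early embryo factors 1.21 and 2.43. Of the 41 body wall muscle genes, 7 were lower in GMC101 and 27 in CL2122, where 14.1% and 15.3% of all genes were lower. Neuropeptides had medians of 0.66 and 0.95, with 15 and 35 members higher. The medians of all genes were 0.13 in GMC101 and 0.31 in CL2122, and the differences between the strains' ratios were not tested.

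A small set of genes went opposite ways. Of the genes higher in GMC101, 24 were lower in CL2122, and of those lower in GMC101, 8 were higher in CL2122. The defense gene T24B8.5, a known target of p38 MAP kinase signaling, had 1192 reads at 24 h and 79 at 8 h in GMC101, and 7 reads at 24 h and 249 at 8 h in CL2122. The infection-responsive gene irg-4 had 691 reads at 24 h and 174 at 8 h in GMC101, and 1 read at 24 h and 376 at 8 h in CL2122. For lys-2 the values were 6075 reads at 24 h and 1249 at 8 h in GMC101, and 711 reads at 24 h and 1532 at 8 h in CL2122. These 3 genes are examples chosen for opposite values, so that their difference between the strains is a description.

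**Figure D5:**
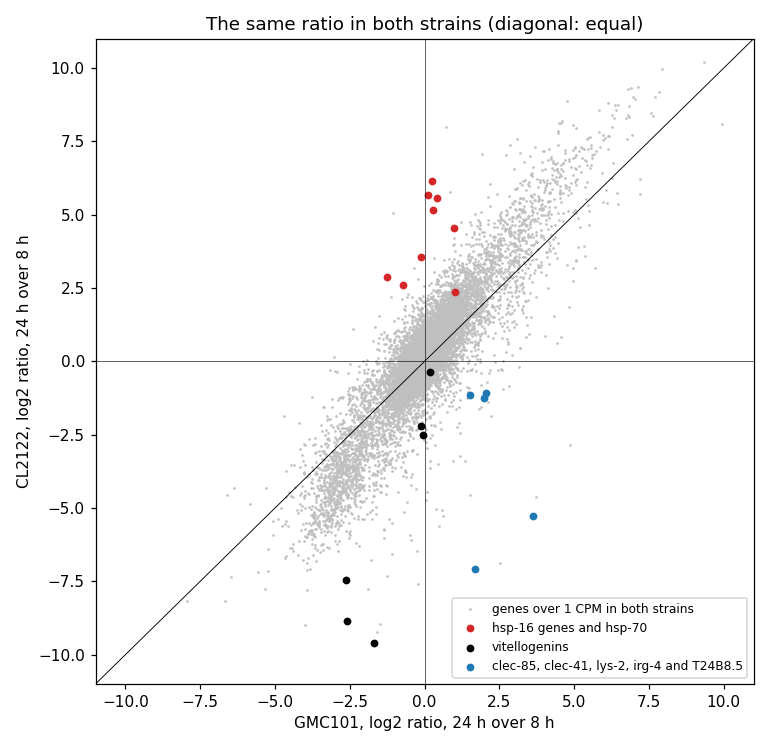
Log2 ratio, 24 h over 8 h, in GMC101 (x axis) and in CL2122 (y axis) for the genes with at least 1 CPM at either time in both strains, with the diagonal marking equal ratios. The hsp-16 and hsp-70 genes lie above the diagonal, with medians of 0.25 in GMC101 and 4.55 in CL2122, the vitellogenins lie below it, and clec-85, clec-41, lys-2, irg-4 and T24B8.5 lie in the lower right, higher in GMC101 and lower in CL2122.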

How the data were processed

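RNA of whole worms was sequenced from poly(A)-selected, fragmented mRNA with random primers and the NEBNext Ultra kit, paired-end and without marking strand, so that overlapping and antisense genes cannot be told apart. For each time the authors deposited a table holding a normalized signal for every gene in each strain, and their own fold changes and p-values between the strains, which were not used. Submitters' processing notes name HISAT2, StringTie and DESeq2. The counter, the genome build and how labelled samples were combined are not given in the sources used here. The deposited signal was found to be whole reads times a constant, and 100% of the values came out whole within 0.01 reads.

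Reads were scaled to each column's own total. A gene was called past a log2 ratio of 1 in either direction with at least 1 CPM at either time. This is a rule of size, and no test was possible with 1 value per time. Where a time had 0 reads, a fold was bounded against 3 reads. RPKM used the deposited gene lengths. Ratios, intervals and calls were tested on simulated data.

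The comparison and the 47 gene lists, taken by symbol, were chosen with earlier results of these data known. Named genes were the 15 largest and the 15 smallest ratios among genes with a symbol of their own, at least 10 CPM at the higher time and more than 3 reads at both, the up to 5 largest in each direction with 3 reads or fewer at 1 time, the extremes and most abundant members of each list, all members of the short lists, and the 10 genes with most reads. Genes named beyond that rule, for their roles or to list the called members of a group, were chosen after their values were seen, as were the symbol families.

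Alternatives were TMM and median-of-ratios scaling, a total without the 50 most abundant genes, no minimum or one of 1 CPM at both times or 10 CPM at either, a pseudocount of 1 CPM, protein-coding genes only, a log2 ratio of 2, intervals wholly past the fold, and edgeR's exact test with an assumed coefficient of variation of 0.2 or 0.4. Genes are placed by the coordinates in the deposited tables. Ensembl's WBcel235 annotation holds 18413 of the 18538 identifiers, each overlapping the deposited position. Python 3.11.15 served for the calculations (numpy 2.4.6, pandas 2.3.3, scipy 1.17.1) and the figures (matplotlib 3.10.9), and R 4.3.3 for edgeR 4.0.16 and for the size factors of DESeq2 1.42.0.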

Additional observations from a re-analysis of the deposited data

Results flagged for a closer look

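Past 2-fold in opposite directions in the strains were 24 genes higher in GMC101 and 8 lower in it. Only part of them is given here. With 1 value per strain and time, the difference between the strains was not tested. The lectin genes clec-85, clec-41, clec-86 and clec-265 had log2 ratios of 2.05, 1.51, 1.41 and 1.19 in GMC101, against -1.07, -1.16, -1.25 and -1.31 in CL2122. The lysozyme gene lys-2 had a log2 ratio of 1.98 in GMC101 and -1.23 in CL2122. The acyltransferase gene oac-32 had 2.21 in GMC101 and -1.85 in CL2122, and the inositol transporter gene hmit-1.1 had 1.45 in GMC101 and -1.05 in CL2122. The defense gene T24B8.5 had 3.62 in GMC101 and -5.28 in CL2122, the protease gene asp-17 had 1.81 in GMC101 and -1.64 in CL2122, and the superoxide dismutase gene sod-3 had 1.07 in GMC101 and -1.61 in CL2122. For irg-4 the log2 ratio was 1.69 in GMC101, against 1 read at 24 h and 376 at 8 h in CL2122. The small heat shock protein gene hsp-16.49 went the other way, with a log2 ratio of -1.27 in GMC101 and 2.87 in CL2122. So did the lectin gene clec-69, with 20 reads at 24 h and 34 at 8 h in GMC101. In CL2122 clec-69 had 110 reads at 24 h and 1 at 8 h. The gene hsp-16.49 is a near-identical copy of hsp-16.48, which had a log2 ratio of 1.03 in GMC101, so that its own value is uncertain. Counting intervals in GMC101 reached inside 2-fold for sod-3 (0.39 to 1.78), clec-265 (0.98 to 1.41), hsp-16.49 (-1.69 to -0.86) and clec-69 (-1.94 to -0.23). In CL2122 those of clec-85, clec-86, hmit-1.1, asp-17 and sod-3 did.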

How the results depend on the processing

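The 2004 higher and 2025 lower genes of GMC101 depended on the minimum and the fold more than on the scaling. With at least 1 CPM at both times, which tests fewer genes, 1070 were higher and 1220 lower, and with at least 10 CPM at either time 712 and 827. A log2 ratio beyond 2 left 909 higher and 1191 lower genes, and 1256 higher genes had an interval wholly past the fold. The exact test of edgeR with an assumed coefficient of variation of 0.2 called 1333 higher genes, and with 0.4 it called 499 higher and 739 lower. TMM and median-of-ratios scaling gave medians of all genes of -0.0068 and -0.0019 in place of 0.13, since they centre the bulk of genes near 0 by construction, and gave 1714 and 1720 higher and 2237 and 2229 lower genes. Taking 1 to 3 reads as counted, an alternative chosen after seeing the data, left both counts as they were. It could not change them, since a gene with at least 1 CPM is already past the fold against 3 reads. Each of the 3 other scalings shifts every log2 ratio by the same amount, so that the order of the 47 list medians could not change. The chemoreceptor median turned to -0.47 at a minimum of 10 CPM, against 1.56, and the molting and apical matrix median moved to 1.87, against 0.31. With a pseudocount of 1 CPM the medians of collagens, other sperm genes and chemoreceptors were -1.57, -2.11 and 0.75, and with no minimum that of chemoreceptors was 0.51. Of the 199 named genes, 190 stayed on their side of the fold under TMM scaling. The shifts are too small for any gene past the fold to change sign.

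No paired analysis was possible because the columns carry no replicate number, although the sample titles do. Leaving out each replicate in turn was not run for the same reason. Depth limits genes of few reads, and without replicates the spread between worm populations is unknown at any depth.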

Other observations

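Several symbol families that are wholly or mostly outside the lists lay mostly on 1 side in GMC101. They were picked after their values were seen and are given as values. Of 17 pals genes, which include regulators of the response to intracellular pathogens, 10 were higher at 24 h and none was lower, with a median log2 ratio of 1.47 and summed levels of 80.8 CPM at 24 h and 29.8 CPM at 8 h. The regulator pals-25 had 219 reads at 24 h and 66 at 8 h, and its antagonist pals-22 had 154 reads at 24 h and 93 at 8 h, log2 ratios of 1.43 and 0.43. Of 16 gcy genes, guanylyl cyclases used mostly by sensory neurons, 8 were higher and none was lower, with a median of 1.02, while their summed level was 222.2 CPM at 24 h and 265.8 CPM at 8 h, and gcy-11 had 487 reads at 24 h and 95 at 8 h. Of 41 ceh homeobox genes, 14 were higher and 2 lower, with a median of 0.68.

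Other families leaned to the lower side. Of 12 snf genes, which encode sodium-coupled transporters of amines and amino acids, 6 were lower and none was higher, with a median of -1.04, and snf-5 had 209 reads at 24 h and 1636 at 8 h. Of 20 nep genes, neprilysin-like peptidases, 9 were lower and 3 higher, with a median of -0.85, and nep-13 had 31 reads at 24 h and 181 at 8 h. Of 10 irld genes, which encode secreted or membrane proteins with an insulin receptor-like L domain, 6 were lower and 2 higher, with a median of -1.74.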
